A study of Homo sapiens with 7 samples.

Results

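The 5 GATA factor genes GATA3, GATA2, GATA4, GATA5 and GATA6 were examined in peak lists of T-47D, an established luminal breast cancer cell line grown untreated in DMEM with 10% serum. Each gene was taken by its fixed hg19 interval plus 100 kb on each side, and every peak that touched such a window was kept, which gave 164 of the 286998 peaks in the series. Chromatin immunoprecipitation sequencing had been carried out once for each of 6 chromatin features, H3K27ac, H3K4me2, H3K36me3, H3K27me3, H2A.Z and H3K9me3, all in the same untreated line, so there was 1 library per mark and no replicate. An input library was also listed and was not analysed here. Genome-wide, 30.4% of the peaks labelled H3K9me3, textbook a mark of silent heterochromatin, overlapped H3K27ac and 35.3% overlapped H3K4me2. Of the peaks labelled H2A.Z, textbook a variant found at active promoters and enhancers, 0.046% overlapped H3K27ac and 0.305% overlapped H3K4me2, and 14.8% overlapped H3K27me3. Both lists therefore go by their labels here, as the labelled H3K9me3 and the labelled H2A.Z list. Luminal identity of the line was not checked against other marker genes, since an hg19 gene annotation was not used here.

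GATA factors are zinc finger transcription factors that bind the short DNA motif for which they are named. GATA3 is required for luminal differentiation of the mammary gland and acts with the estrogen receptor and FOXA1 in luminal breast cancer. GATA2 is a factor of blood stem and progenitor cells, and GATA4, GATA5 and GATA6 are factors of heart and endoderm, with GATA6 also acting in gut and pancreas. H3K27ac marks active promoters and enhancers, H3K4me2 marks promoters and enhancers more widely, H3K36me3 marks transcribed gene bodies, and H3K27me3 marks chromatin repressed by Polycomb.

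The promoter sequences are shown for GATA3, GATA2 and GATA6, the 3 genes that matched the RefSeq promoter table. In hg19 no peak lay over the starts of the fixed intervals of these 3 genes. The nearest upstream peaks, described below, ended 1.23, 0.308 and 0.524 kb before those interval starts. Each sequence is the 250 bases before a start of that table (GRCh38.p14), in the sense of the gene, with every CG step in capitals. They lie at chr10:8054438-8054687 on the plus strand, chr3:128493202-128493451 on the minus strand and chr18:22169339-22169588 on the plus strand.
GATA3: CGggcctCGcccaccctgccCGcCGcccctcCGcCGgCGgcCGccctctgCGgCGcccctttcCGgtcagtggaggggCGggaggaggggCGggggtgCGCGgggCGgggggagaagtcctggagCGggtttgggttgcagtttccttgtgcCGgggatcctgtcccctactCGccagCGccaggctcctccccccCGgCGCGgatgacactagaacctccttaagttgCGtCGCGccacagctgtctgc
GATA2: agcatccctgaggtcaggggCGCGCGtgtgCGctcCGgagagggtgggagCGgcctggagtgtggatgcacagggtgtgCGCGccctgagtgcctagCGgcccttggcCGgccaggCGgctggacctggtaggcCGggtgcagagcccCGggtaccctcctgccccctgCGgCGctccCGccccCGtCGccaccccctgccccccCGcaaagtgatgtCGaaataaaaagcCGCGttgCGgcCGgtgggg
GATA6: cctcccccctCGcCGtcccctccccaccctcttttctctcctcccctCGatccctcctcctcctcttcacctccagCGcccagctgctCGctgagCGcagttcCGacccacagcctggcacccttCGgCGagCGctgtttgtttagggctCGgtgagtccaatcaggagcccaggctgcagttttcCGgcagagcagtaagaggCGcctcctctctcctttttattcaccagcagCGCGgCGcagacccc
The GATA3 sequence holds 26 CG steps, the GATA2 sequence 24 and the GATA6 sequence 16, against a median of 11 over the 35116 promoters of the table. At least as many steps were found in 19.6% of all promoters for GATA3, 23.7% for GATA2 and 41.0% for GATA6. The letters GATAA, or TTATC on the other strand, occur in none of these 3 windows and in 20.4% of all promoters of this length. The table gives 6 starts for GATA3, from 9.36 kb before to 5.77 kb after the one shown. It gives 2 for GATA2, the other lying 4.67 kb after the one shown. Of the 5 GATA3 promoters not shown, the one of the start 5.77 kb downstream, with 4 CG steps, does hold GATAA or TTATC. The start shown is the one whose distance to the gene end came closest to the length of the hg19 interval. These lengths differed by 13 bp for GATA3, 14 bp for GATA2 and 128 bp for GATA6. For GATA6 this is more than the 86 bp from the interval start to an H3K27ac peak. Peaks were measured from the start of the hg19 interval alone. The starts of the promoter table, known on another build, were not placed among the peaks. Whether a peak lies over any start shown was therefore not tested.

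In hg19 the 5 genes are GATA3 at chr10:8096667-8117164 on the plus strand, GATA2 at chr3:128198265-128212030 on the minus strand, GATA4 at chr8:11561717-11617509 on the plus strand, GATA5 at chr20:61038553-61051026 on the minus strand and GATA6 at chr18:19749416-19782227 on the plus strand. GATA4 is the longest at 55.8 kb, against 32.8 kb for GATA6, 20.5 kb for GATA3, 13.8 kb for GATA2 and 12.5 kb for GATA5. Distances below run from the gene start in the direction of transcription, and the start is the first transcribed base of the interval.

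GATA3 did not have the most peaks of any active mark in these lists. Its window held 4 H3K27ac peaks, none of them in the gene, and 10 H3K4me2 peaks, 1 of them in the gene. H3K27ac covered 1.36% of the GATA3 window, against 2.07% for GATA2, 4.43% for GATA4, 8.48% for GATA5 and 0.738% for GATA6. The GATA3 value was thus above that of GATA6 alone. The difference between GATA3 and the mean of the other 4 windows was -2.57 percentage points, with an SD of 3.4 among those 4, which are different genes and not replicates. Without GATA5 it was -1.06 points. All 5 windows held an H3K27ac peak, and so did 53.1% of 200 kb tiles laid over the genome. These tiles are shorter than the windows, which run from 212 kb for GATA5 to 256 kb for GATA4.

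H3K4me2 covered 4.12% of the GATA3 window, against 3.60% for GATA2, 7.86% for GATA4, 10.9% for GATA5 and 1.65% for GATA6. GATA3 lay between GATA2 and GATA4. The difference from the mean of the others was -1.88 points with an SD of 4.17 among them, and -0.25 points without GATA5. All 5 windows held H3K4me2, as did 81.4% of tiles. Of all tiles, 14.1% were covered by H3K4me2 at least as much as the GATA3 window and 25.8% by H3K27ac at least as much. For H3K4me2 this share was 17.2% for the GATA2 window, 3.19% for GATA4, 1.02% for GATA5 and 38.2% for GATA6. For H3K27ac it was 19.1% for GATA2, 8.17% for GATA4, 2.72% for GATA5 and 35.9% for GATA6. The GATA5 window was thus among the most covered of the genome for both marks, and the GATA6 window was the least covered of the 5.

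**Figure D1:**
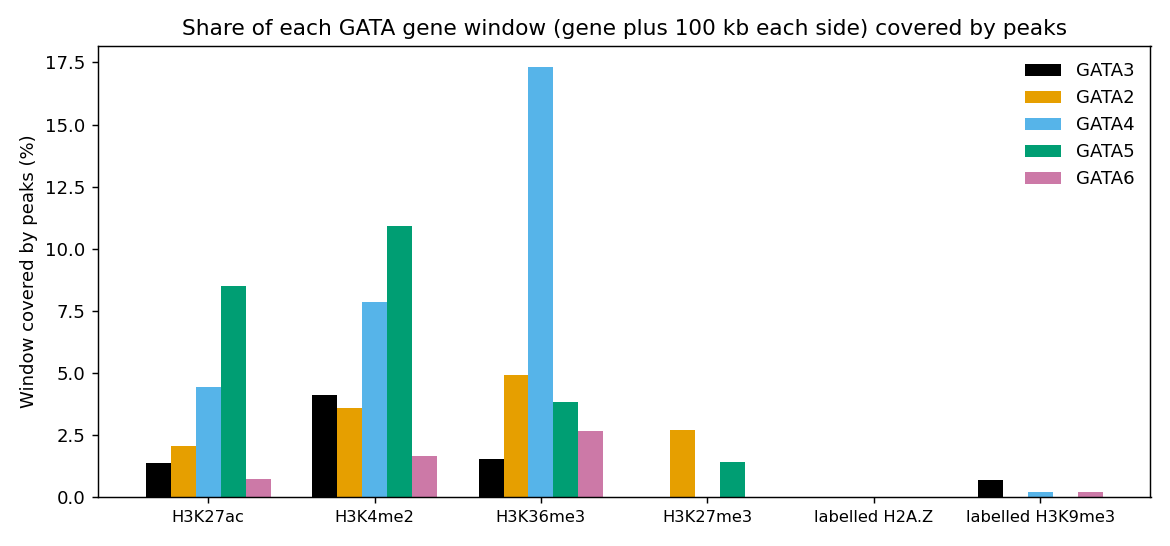
Share of each window (gene plus 100 kb on each side, y axis, percent) covered by the union of the peaks of each list (x axis), with 1 bar per gene and 1 library per list, so no error bars. GATA5 and GATA4 stand highest for H3K27ac and H3K4me2, GATA4 for H3K36me3 at 17.3%, and GATA3 is the highest for the labelled H3K9me3 list alone, at 0.70%.

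H3K36me3 covered 1.51% of the GATA3 window, the lowest of the 5, against 4.91% for GATA2, 17.3% for GATA4, 3.84% for GATA5 and 2.67% for GATA6. The difference from the mean of the others was -5.68 points, with an SD of 6.83 among them. Without GATA4 the difference was -2.29 points. Every window held an H3K36me3 peak, and 41.2% of tiles did. Peaks of H3K27ac, H3K4me2 and H3K36me3 together were found in all 5 windows and in 35.7% of tiles. The share of tiles covered by H3K36me3 at least as much was 32.2% for GATA3, 22.4% for GATA2, 6.31% for GATA4, 24.9% for GATA5 and 28.2% for GATA6. In the gene itself GATA3 had no H3K36me3 peak, whereas GATA2 was covered over 58.6% of its length, GATA6 over 17.5%, GATA4 over 2.03% and GATA5 not at all.

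**Figure D2:**
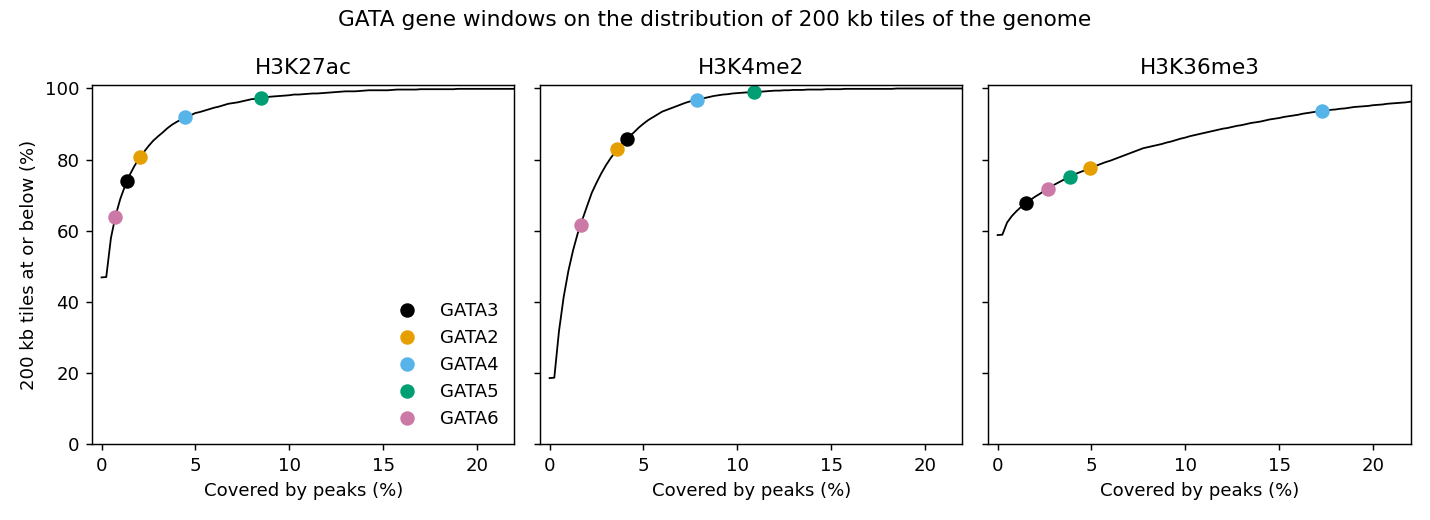
Curves give the percent of 200 kb genome tiles (y axis) whose coverage by H3K27ac, H3K4me2 or H3K36me3 peaks is at or below a value (x axis, percent), and dots place the 5 GATA windows on them. GATA5 and GATA4 sit near the top of the H3K27ac and H3K4me2 curves, while GATA3 sits where 25.8% of tiles are covered at least as much by H3K27ac, 14.1% by H3K4me2 and 32.2% by H3K36me3.

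Around the GATA3 start the lists left an open span. No peak of any list lay between 1.22 kb upstream and 10.2 kb downstream of the start, a span of 11.4 kb. Just upstream of it, H3K4me2 peaks at chr10:8094492-8095129 and chr10:8094629-8095366, which overlap each other, met an H3K36me3 peak at chr10:8094617-8095442. These peaks ended 1.54, 1.30 and 1.23 kb before the start. The only peak inside the gene was an H3K4me2 peak of 1158 bp at chr10:8106823-8107980. A span without a peak may still hold signal below the authors' threshold, and the lists carry no height to show it.

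The H3K27ac peaks of GATA3 lay away from the gene. The nearest was a 501 bp peak 16.8 kb upstream at chr10:8079357-8079857, and it overlapped a labelled H3K9me3 peak at chr10:8078894-8079558. Downstream, a 738 bp peak at chr10:8120445-8121182 overlapped an H3K4me2 peak of 1181 bp, and a 1250 bp peak at chr10:8126641-8127890, the widest H3K27ac peak of the window, overlapped no other list. The most distant one, at chr10:8169871-8170371, 73.2 kb from the start, overlapped the widest H3K4me2 peak of the window, which spans 2194 bp at chr10:8170028-8172221. So 2 of the 4 H3K27ac peaks met H3K4me2, and no region of the GATA3 window held 3 lists.

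Upstream of GATA3, 4 further H3K36me3 peaks of 501 bp each lay between 46.0 and 87.9 kb before the start. On that side the RefSeq gene table (GRCh38) lists TAF3, a subunit of the general transcription factor TFIID. It also lists GATA3-AS1, a long noncoding RNA gene, as overlapping GATA3. The table is of another build, so no peak was placed in TAF3 or GATA3-AS1. The labelled H3K9me3 list had a second peak upstream of GATA3, 878 bp wide, 8.94 kb before the start, and it overlapped no other list.

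**Figure D3:**
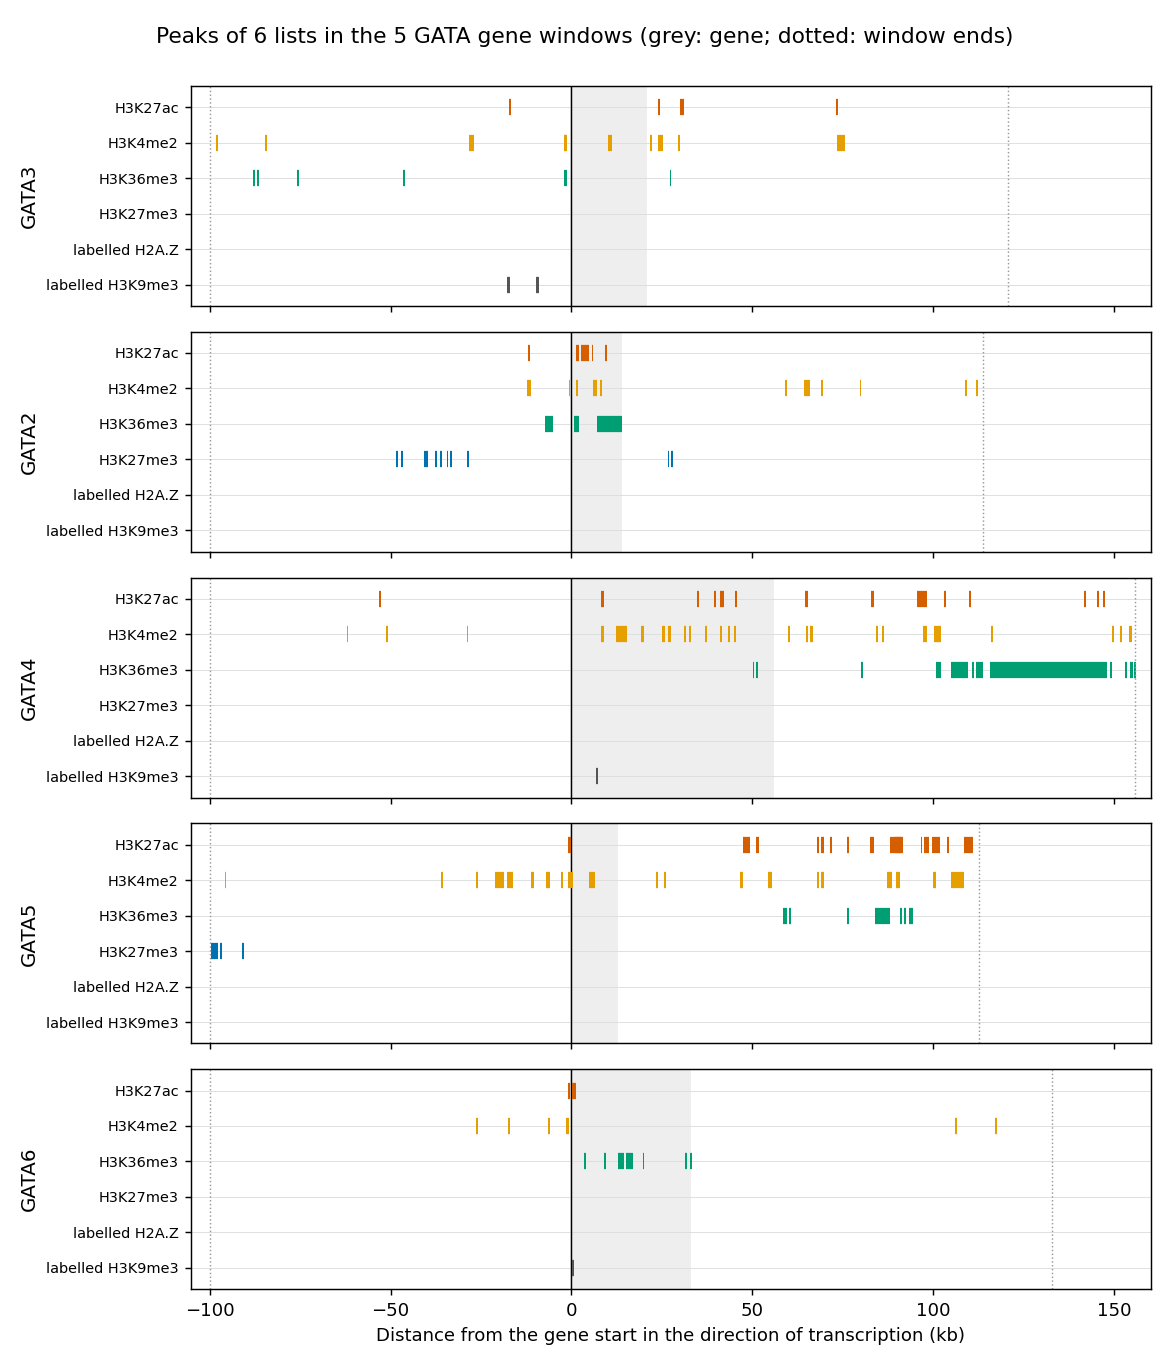
Peaks of the 6 lists (rows, 1 library each) in the windows of the 5 GATA genes, drawn to scale by distance from the gene start in kb (x axis, direction of transcription), with the gene in grey and the window ends dotted. The GATA3 gene holds 1 peak, the H3K27ac peaks of GATA5 lie mostly 47.3 to 111 kb downstream of its start, and a 32429 bp H3K36me3 peak lies downstream of GATA4.

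GATA2, the blood factor, had the highest cover of H3K27ac and H3K36me3 inside the gene among the 5. Of its 5 H3K27ac peaks, 4 lay in the gene, and together they covered 28.5% of it, against 6.89% for GATA4, 3.71% for GATA6 and none for GATA3 and GATA5. The widest, of 2243 bp at chr3:128207091-128209333, began 2.70 kb downstream of the start. H3K4me2 covered 15.9% of the GATA2 gene, against 5.65% of GATA3, 17.6% of GATA4, 17.3% of GATA5 and none of GATA6. An H3K36me3 peak of 6806 bp at chr3:128198032-128204837 ran over the end of the gene. Another, of 2196 bp at chr3:128217154-128219349, ended 5.12 kb before the start and overlapped no other list. The GRCh38 table lists GATA2-AS1, a long noncoding RNA gene, as overlapping GATA2, and no peak was placed in it. H3K27ac, H3K4me2 and H3K36me3 met in 1 region 0.593 to 2.08 kb from the start, at chr3:128209946-128211437, where each overlapped both others. Under the 6806 bp H3K36me3 peak lay 1 H3K27ac and 1 H3K4me2 peak that did not overlap each other. The nearest H3K4me2 peak ended 308 bp before the start, at chr3:128212338-128212838.

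H3K27me3 flanked this active stretch of GATA2 without touching it. Of 10 H3K27me3 peaks in the window, 8 lay upstream, the nearest of them 28.3 kb from the start and the farthest reaching 48.5 kb. The other 2 lay downstream, 26.5 to 28.1 kb from the start. All were 501 bp wide except peaks of 635 and 1105 bp. They covered 2.69% of the GATA2 window, and 17.5% of tiles were covered at least as much. GATA2 and GATA5 were the only windows with H3K27me3, and 45.2% of tiles held it, so 2 of 5 is near the genome's share. The GATA5 window was covered over 1.40%, and 24.0% of tiles were covered at least as much.

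GATA4 had 14 H3K27ac and 25 H3K4me2 peaks, most of them away from its start. The start itself lay in a span of 35.4 kb without a peak of any list, from 28.5 kb upstream to 6.91 kb downstream. The nearest peak, of the labelled H3K9me3 list, was followed by an H3K27ac and an H3K4me2 peak that overlapped each other, 8.07 and 8.03 kb into the gene. Within the gene there were 5 H3K27ac, 11 H3K4me2 and 2 H3K36me3 peaks, and the widest H3K4me2 peak, of 3084 bp at chr8:11574052-11577135, overlapped no other list.

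Downstream of GATA4 the window reached other marked chromatin. An H3K36me3 peak of 32429 bp at chr8:11677327-11709755 began 116 kb from the start and made up most of the 44.3 kb of H3K36me3 in the window. The widest H3K27ac peak, of 2657 bp at chr8:11657285-11659941, lay 95.6 kb from the start. NEIL2, a DNA repair glycosylase, FDFT1, the squalene synthase of cholesterol synthesis, and CTSB, the lysosomal protease cathepsin B, are among the genes that the GRCh38 table lists on this side. With flanks of 50 kb, which leave the 32429 bp peak out, the H3K36me3 difference between GATA3 and the mean of the others was -2.85 points.

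GATA5 had the highest cover of H3K27ac and H3K4me2, and most of it was not in the gene. Of its 15 H3K27ac peaks, 14 lay 47.3 to 111 kb downstream of the start. Joined within 12.5 kb, 12 of them formed 1 cluster of 43.1 kb at chr20:60940070-60983139. The widest peak, of 3078 bp at chr20:60959877-60962954, overlapped H3K4me2 and H3K36me3. The GRCh38 table lists LAMA5, a laminin chain, RPS21, a ribosomal protein, CABLES2 and RBBP8NL on that side.

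At the start of GATA5 itself an H3K4me2 peak of 1639 bp, chr20:61050467-61052105, lay over the first transcribed base, and the starts of the other 4 hg19 intervals lay under no peak of any list. The remaining H3K27ac peak, of 675 bp, ended 258 bp before the start and lay inside that H3K4me2 peak. H3K4me2 went on upstream in 8 more peaks, the widest of 2647 bp at chr20:61069620-61072266, and none of these 8 overlapped H3K27ac. H3K36me3 had 7 peaks, all downstream of the gene. The 3 H3K27me3 peaks of the window lay 90.5 kb or more upstream.

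GATA6, the endoderm factor, had 16 peaks over all lists, and 9 of them lay in the gene. An H3K27ac peak of 1217 bp at chr18:19749502-19750718 began 86 bp after the start, and a second, of 501 bp, ended 0.524 kb before it. The upstream one met an H3K4me2 peak of 793 bp, and the downstream one met a labelled H3K9me3 peak of 501 bp. The GRCh38 table lists GATA6-AS1, a long noncoding RNA gene, upstream of GATA6, and no peak was placed in it. From 3.37 kb onward 7 H3K36me3 peaks followed to the end of the gene, the widest of 1767 bp at chr18:19764603-19766369. GATA6 had the lowest cover of the 5 windows by H3K27ac and H3K4me2, and its gene body held no H3K4me2 peak.

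**Figure D4:**
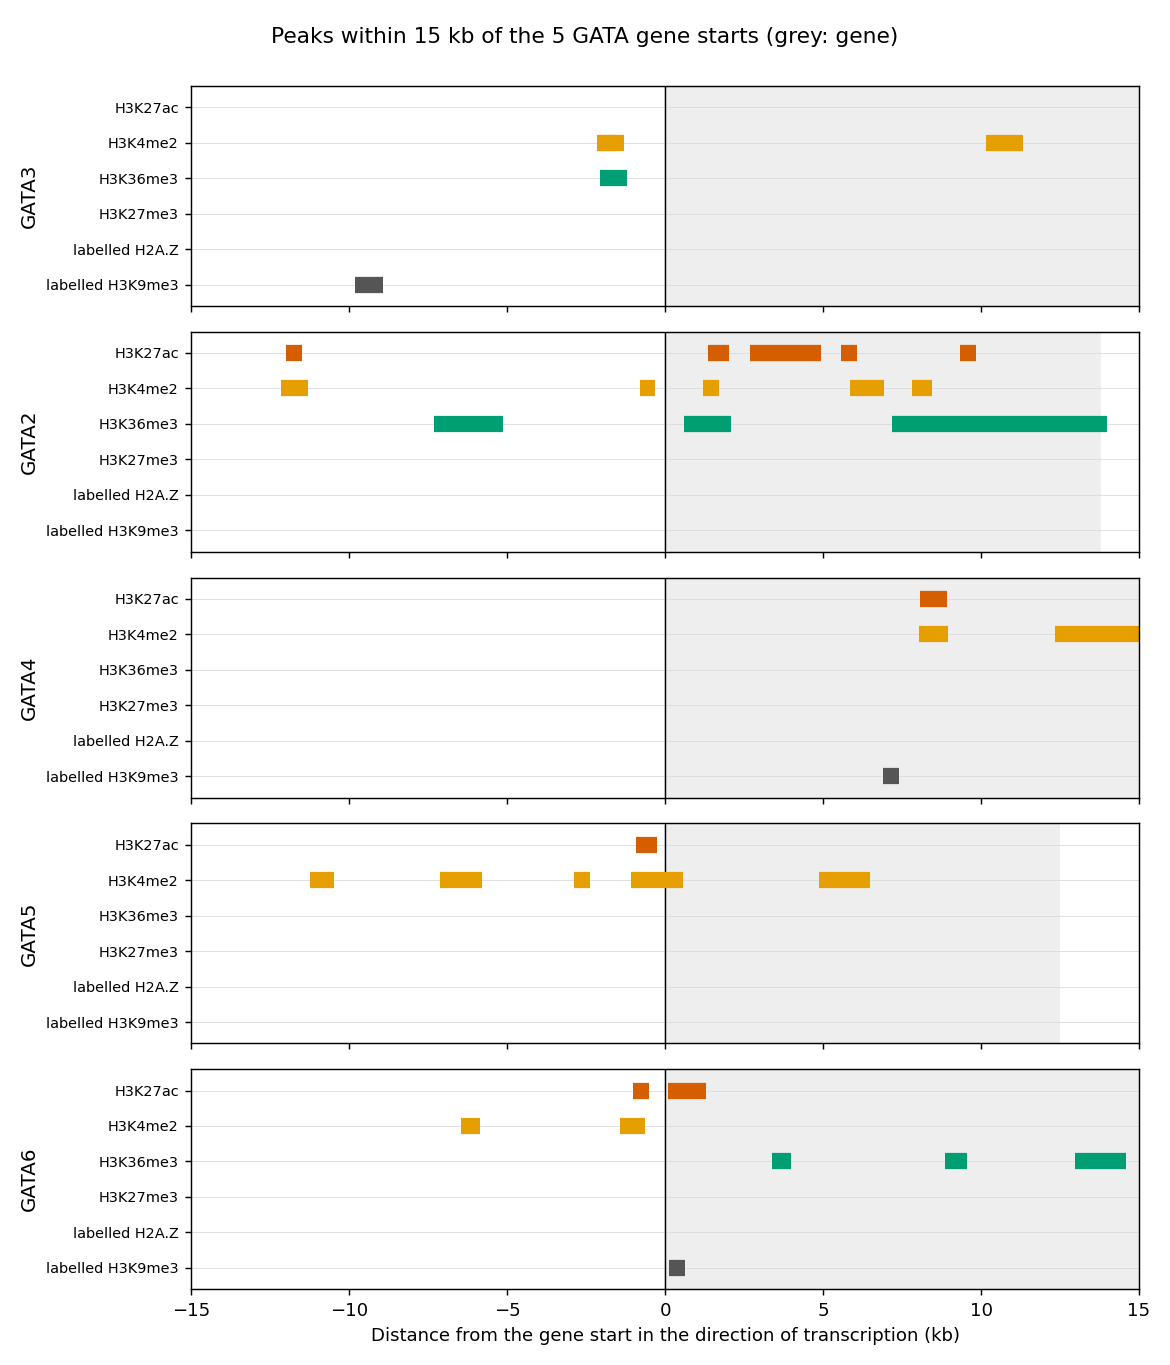
Peaks of the 6 lists (rows, 1 library each) within 15 kb of the 5 gene starts, to scale in kb along the direction of transcription (x axis), with the gene in grey. H3K27ac lies within 2.5 kb of the starts of GATA2, GATA5 and GATA6, while the nearest H3K27ac peak is 16.8 kb from the start of GATA3 and 8.07 kb from that of GATA4.

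Within 2.5 kb either side of the start, H3K4me2 was present at 4 of the 5 genes, GATA3, GATA2, GATA5 and GATA6, and 11.4% of 5 kb tiles held it. H3K27ac was present at 3 of 5, GATA2, GATA5 and GATA6, with 5.82% of tiles holding it. H3K36me3 was present at 2 of 5, GATA3 and GATA2, with 9.34% of tiles. The labelled H3K9me3 list had a peak at GATA6 alone, with 3.95% of tiles. H3K27me3, with 9.34% of tiles, and the labelled H2A.Z list, with 8.1%, were at none of the 5 starts. Tiles are mostly not gene starts, and the starts of other genes were not measured here.

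The labelled H2A.Z list had no peak in any of the 5 windows, while 48.1% of 200 kb tiles held one and 51.9% did not. The windows of GATA3, GATA4 and GATA6 held neither H3K27me3 nor labelled H2A.Z, as did 39.2% of tiles. Among tiles with both H3K27ac and H3K4me2, 39.6% held a labelled H2A.Z peak and 43.2% held H3K27me3. The labelled H3K9me3 list had 2 peaks at GATA3, 1 at GATA4 and 1 at GATA6, and none at GATA2 and GATA5, while 58.3% of tiles held one. It covered 0.70% of the GATA3 window, against 0.196% for GATA4 and 0.215% for GATA6, and 25.7% of tiles were covered at least as much as GATA3, 58.2% as much as GATA4 and 58.2% as much as GATA6. This order turned when the gene bodies were taken alone, where GATA3 had none and the difference from the mean of the others was -0.606 points instead of 0.597.

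Across the 5 windows H3K27ac and H3K4me2 met about as often as they did genome-wide. Of 40 H3K27ac peaks, 47.5% (19) overlapped H3K4me2, against 48.8% of all H3K27ac peaks. Of 72 H3K4me2 peaks, 26.4% overlapped H3K27ac, against 25.7% of all. H3K27ac met H3K36me3 in 8 of 40 peaks (20%), against 12.9% of all, and 5 of 35 H3K36me3 peaks (14.3%) met H3K27ac, against 6.61% of all. H3K4me2 met H3K36me3 in 8 of 72 peaks (11.1%), against 4.09% of all, and 7 of 35 H3K36me3 peaks (20%) met H3K4me2, against 4.86% of all. Labelled H3K9me3 met 2 of 40 H3K27ac peaks (5%), against 19.3% of all, and none of 72 H3K4me2 peaks, against 11.2% of all. Of the 4 labelled H3K9me3 peaks themselves, 2 met H3K27ac (30.4% of all did) and none met H3K4me2 (35.3%) or H3K36me3 (0.156%). No H3K36me3 peak and no H3K27me3 peak of the windows met labelled H3K9me3, against 0.0609% and 1.13% of all peaks of those lists. None of the 13 H3K27me3 peaks touched H3K27ac, H3K4me2 or H3K36me3, pairs that met in 0.0171%, 1.20% and 0.0062% of all H3K27me3 peaks. In all, 128 merged regions lay in the windows, 102 of them of a single list, 22 of 2 lists and 4 of 3. The regions of 3 lists, each of H3K27ac, H3K4me2 and H3K36me3, were 2 at GATA2, 1 at GATA4 and 1 at GATA5, with none among the 17 regions of GATA3. Merged regions chain overlapping peaks, and all 3 lists shared a base only in the GATA2 region at chr3:128209946-128211437. Of the 240519 merged regions of the genome, 11.3% held 2 lists and 2.58% held 3 or more.

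For H3K27ac the order of the genes depended on how much flank was taken, and at none of the 5 flank sizes was GATA3 the highest for H3K27ac, H3K4me2 or H3K36me3. GATA2 had the highest H3K27ac cover in the gene body alone and with 20 kb of flank (8.23%), GATA4 with 50 kb (5.58%), and GATA5 with 100 kb (8.48%) and 200 kb (6.53%). With 20 kb on each side, H3K27ac covered 4.11% of the GATA3 window and 4.17% on average of the others, a difference of -0.0574 points. In the gene body alone it covered none of GATA3 and 9.78% on average of the others, with 28.5% for GATA2 and none for GATA5. With 1 library per mark these differences have no replicate check, and copy number, which differs along the T-47D genome, was not corrected here.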

How the data were processed

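The deposited files are peak lists, 1 per library, with chromosome, start, end and peak name and no height, score or p-value. The tools named per the submitters' processing notes are Bowtie2 2.1.0 and HOMER 4.2, with hg19 (GRCh37) as build and no role for either tool. How peaks were called and how deep each library was is not given in the sources used here, so no interval was computed. In each list the commonest peak width is 501 bp.

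Starts were converted to 1-based coordinates. Overlap means at least 1 shared bp, and covered share is the union of the peaks of a list over the window. Tiles of 200 kb (13858) and 5 kb on chromosomes 1 to 22 and X served as background, without spans of 1 Mb or more free of peaks. The strands of GATA4 and GATA5 are textbook knowledge. Of the 5 genes, 3 matched the promoter table and 5 the RefSeq gene table (GRCh38.p14), which was used for names and order alone. All 5 genes are named, with the widest peak and the one nearest the start, where they bear on a comparison. No test was made. Members and settings were chosen with earlier results of these data known. Coverage code was tested on simulated data. Python 3.11.15, numpy 2.4.6, pandas 2.3.3 and matplotlib 3.10.9 were used. Partner genes and cell type markers were planned and not analysed here, as they need an hg19 annotation.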

Additional observations from a re-analysis of the deposited data

How the results depend on the processing

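No paired analysis was possible because each mark had 1 library. No result has a test. The alternatives were flanks of 0, 20, 50 and 200 kb, wider peaks only, peaks merged within 1 kb, peaks taken by midpoint and each other gene left out of the mean. The differences between GATA3 and the mean of the others stayed negative for H3K27ac, H3K4me2 and H3K36me3 in all 12 alternatives. They moved by more than the spread of the other 4 genes in the gene body alone, to -9.78, -7.06 and -19.5 points. There GATA2 was covered over 28.5% by H3K27ac and 58.6% by H3K36me3, and GATA5, like GATA3, by neither. Genes were left out of the mean only with 100 kb of flank. For the labelled H3K9me3 list the difference was 1.11, 2.25 and 0.226 points with flanks of 50, 20 and 200 kb, and -0.606 in the gene body alone, since its GATA3 peaks lie upstream. H3K27me3 gave -1.41 to 0 points. List pairs that shared a region numbered 14 over the 5 windows, and 8 when peaks no wider than each list's median were dropped, which left none at GATA6, and an overlap of 50% of the shorter peak or merging within 1 kb left the total within 1.5 times. Chosen after seeing the data, tiles of 250 kb and tiles in peak-free spans put the share covered by H3K27ac at least as much as GATA3 at 26.9% and 23.6%, against 25.8%. Marks at the starts numbered 10 of 30 combinations, and 7 to 11 in the alternatives, also chosen after seeing the data. The lists give no depth or height, so a peak just under the authors' threshold cannot be told from none.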

Other observations

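The distances and the chromosome shares below were chosen after the values were seen. The nearest H3K27ac peak wider than 2 kb lay 819 kb upstream of the GATA3 start, at chr10:7272232-7277759, with a width of 5528 bp. It lay 2.70 kb from the GATA2 start, 95.6 kb from GATA4, 88.1 kb from GATA5 and 296 kb from GATA6. For H3K4me2 the nearest peak wider than 2 kb was 73.4 kb from GATA3, 130 kb from GATA2, 12.3 kb from GATA4, 18.6 kb from GATA5 and 972 kb from GATA6.

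Outside the windows, the nearest H3K27me3 peak was 320 kb upstream of GATA3, 326 kb upstream of GATA4 and 2390 kb downstream of GATA6. The nearest labelled H2A.Z peak was 335 kb from GATA3, 366 kb from GATA2, 532 kb from GATA4, 260 kb from GATA5 and 2890 kb from GATA6. Chromosome 18, which carries GATA6, was sparser than the genome in all 6 lists. On it 36.1% of 200 kb tiles held H3K27ac, against 53.1% over the genome, 69.3% held H3K4me2, against 81.4%, 30.2% held H3K36me3, against 41.2%, and 31.3% held labelled H3K9me3, against 58.3%. The GATA6 window, covered over 0.738% by H3K27ac and 1.65% by H3K4me2, lay above the mean of the tiles of its chromosome, which were covered over 0.594% and 0.909%. On chromosome 18, 31.8% of 200 kb tiles held H3K27me3 and 32.4% held labelled H2A.Z, against 52.6% and 48.3% on chromosome 10 with GATA3, and 65.4% and 70.1% on chromosome 20 with GATA5. On chromosome 8 with GATA4, 58.4% of tiles held H3K27me3 and 69.4% held labelled H2A.Z, and the GATA4 window held neither. The nearest peak wider than 2 kb lay 9900 kb from the GATA4 start for H3K27me3 and 9330 kb for labelled H2A.Z.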
